A study of Mus musculus with 4 samples.

Results

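Cholesterol and fatty acid synthesis was examined through 36 genes, chosen by their symbols: 17 enzymes of the cholesterol pathway, 13 enzymes that make, desaturate or elongate fatty acids, 5 genes of the sterol regulatory element-binding protein (SREBP) system and the sterol carrier Stard4. All 36 were among the 50593 genes of the deposited table, and all 36 had a mean level of at least 1 FPKM, that is, fragments mapped to a gene per kilobase of its transcript, adjusted for library depth. The RNA came from sciatic nerve of mice of strain 129S1/SvImJ at 6 months of age. The labels give 2 mice for each group, called HSF V30M TTR and HSF WT TTR. Both groups carry a heterozygous deletion of Hsf1, which codes for a transcription factor of the heat shock response. HSF V30M mice carry in addition human TTR with the V30M mutation as a transgene on an endogenous Ttr-null background, and are used as a model of hereditary transthyretin amyloidosis because non-fibrillar TTR deposits in their peripheral nerves. Whole nerve was taken, so its fat, muscle remnants and blood are part of the RNA. The table holds 1 FPKM value per gene and group and none per mouse. No spread between mice and no test could therefore be obtained for any comparison, and the differences below describe these libraries.

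Cholesterol is built from acetyl-CoA by way of mevalonate, squalene and lanosterol, and palmitate is built from the same acetyl-CoA by acetyl-CoA carboxylase and fatty acid synthase. Both chains are switched on by SREBP transcription factors, which lie in the membrane of the endoplasmic reticulum until Scap carries them to the Golgi, where they are cut free; Insig proteins hold Scap back when sterols are plentiful. In peripheral nerve these enzymes serve myelin, since Schwann cells make much of the cholesterol and fatty acid of their own membranes, and they are also active in the adipocytes of the epineurium.

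The targeted genes were read first. Mouse Ttr was at 6.10 FPKM in the group labelled HSF V30M and listed at 0 in that labelled HSF WT, which goes against an endogenous null allele in the former, and every direction below therefore rests on the labels as given. The table has no row for human TTR, and whether fragments of the transgene were counted at mouse Ttr was not tested. Hsf1 was at 7.94 FPKM in HSF V30M and 14.96 FPKM in HSF WT, with the same heterozygous deletion described for both. Differences are given as log2((HSF V30M + 1) / (HSF WT + 1)), and a gene is called past the fold where these values differ by more than 1.5-fold. Of 15620 genes with a mean of at least 1 FPKM, 2603 (16.7%) were past the fold, 1284 higher (8.22%) and 1319 lower (8.44%) in HSF V30M, and their median log2 ratio was 0.00. The low values of single-transcript genes showed what 1 fragment is worth in each library. From these steps, the libraries of a group differed 1.35-fold in depth in HSF WT and 1.18-fold in HSF V30M. At equal FPKM and transcript length, a value in HSF V30M stood for 1.31 times as many fragments as in HSF WT.

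The 36 genes did not move as a block. With the labels as given, 19 were higher in HSF V30M and 17 lower, against 50.4% and 49.6% of all genes, and their median log2 ratio was 0.06. Past the fold were 5 genes, or 13.9%, a share close to the 16.7% of all genes. The sterol enzyme Hsd17b7 and the sterol carrier Stard4 were higher in HSF V30M, against a background of 8.22%, and Acly, Fasn and Elovl6, which lie on the route from citrate to stearate, were lower, against a background of 8.44%. The summed level of the 36 genes was 2603 FPKM in HSF V30M and 2585 FPKM in HSF WT. These counts rest on the authors' scaling: dividing each group by its summed FPKM without the 20 highest genes moved the median of all genes to -0.24, and 30 of the 36 genes then had a negative ratio, but 19 were still above the median of all genes and 17 below it.

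**Figure D1:**
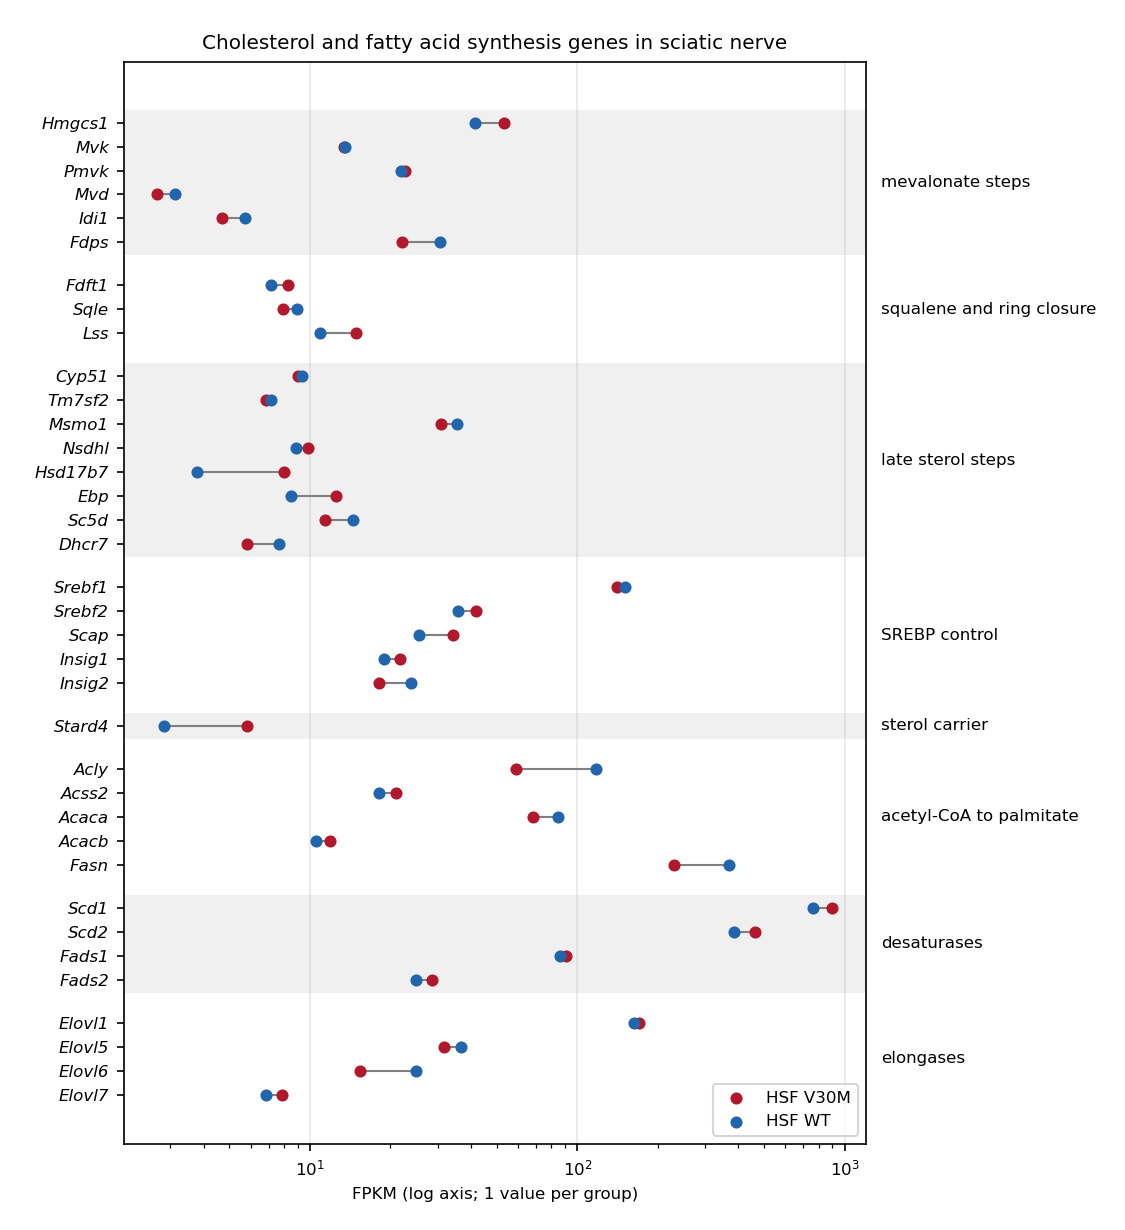
FPKM (log axis) of the 36 genes in sciatic nerve of the groups labelled HSF V30M (red) and HSF WT (blue), 1 value per group with no error, ordered by role in the pathway. The levels run from Mvd, at 2.69 and 3.12 FPKM, to Scd1, at 900.4 and 762 FPKM, and the points of Hsd17b7, Stard4, Acly, Fasn and Elovl6 lie farthest apart.

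For a sense of how finely these ratios were counted, the FPKM values were turned into approximate fragments. The interval that follows a ratio is the 95% exact (Clopper-Pearson) interval of the log2 ratio without a pseudocount, computed for the shortest coding transcript. It covers counting error in these libraries only and says nothing of the variation between mice.

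With the pseudocount of 1, Acly differed most among the members past the fold. Without one, Hsd17b7 and Stard4 differed more, with log2 ratios of 1.09 and 1.03 against -0.99 for Acly. Acly codes for ATP-citrate lyase, which splits citrate to supply cytosolic acetyl-CoA to both chains. Its level was 58.95 FPKM in HSF V30M and 117 FPKM in HSF WT, a log2 ratio of -0.98, or 1.99 times as high in HSF WT. At least 2159 and 3276 fragments stood behind these values, and the counting interval ran from -1.07 to -0.91. Fasn, the fatty acid synthase that assembles palmitate, was at 230.1 FPKM in HSF V30M and 369 FPKM in HSF WT. Its log2 ratio was -0.68, with a counting interval from -0.70 to -0.66, the narrowest of these 5 genes. Elovl6, which elongates palmitate to stearate, was at 15.4 FPKM in HSF V30M and 24.9 FPKM in HSF WT. The log2 ratio was -0.65 and the counting interval ran from -0.83 to -0.55, so its nearer bound lay inside the 1.5-fold line. The sign was the same for all 3 genes under every scaling tried, although after centring on a list of adipocyte markers none of them was past the fold.

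The genes higher in HSF V30M were expressed far less. Hsd17b7, a ketoreductase of the sterol demethylation steps, was at 8.01 FPKM in HSF V30M and 3.76 FPKM in HSF WT. Its log2 ratio was 0.92, with a counting interval from 0.72 to 1.46. Stard4, which carries cholesterol between membranes, was at 5.81 FPKM in HSF V30M and 2.85 FPKM in HSF WT. The log2 ratio was 0.82, but as few as 61 and 23 fragments may stand behind the values, and the interval ran from 0.33 to 1.80. The mean level of Stard4 was 4.33 FPKM, so a minimum of 5 FPKM left Hsd17b7 as the only member higher past the fold. Of the 10205 genes above that minimum, 13.5% were past the fold, 7.17% higher and 6.33% lower. With a fold of 2 in place of 1.5, none of the 36 genes was past it in either direction, against 7.92% of all genes (3.98% higher and 3.94% lower). This holds with the pseudocount of 1, since without one Hsd17b7 was 2.13-fold and Stard4 2.04-fold higher.

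**Figure D2:**
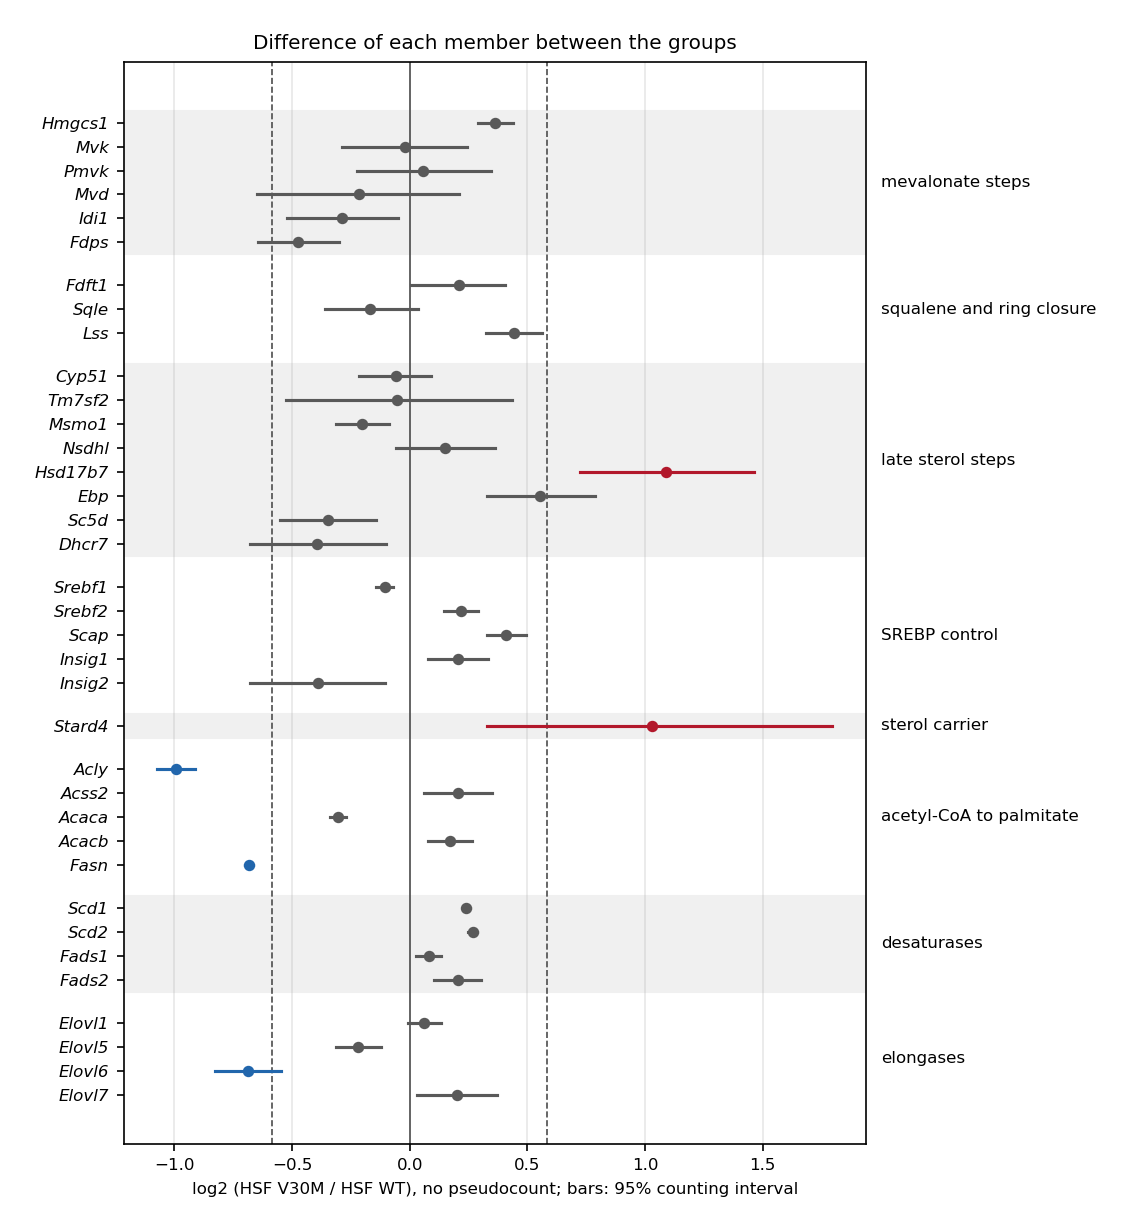
Difference of each of the 36 genes between HSF V30M and HSF WT, as the log2 ratio without a pseudocount (points), with the 95% interval of counting error (bars); dashed lines mark 1.5-fold. Genes past the fold are red (higher) or blue (lower); Stard4 has the widest interval among them, from 0.33 to 1.80, and Fasn the narrowest, from -0.70 to -0.66.

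The sequence just upstream of the start sites was read from RefSeq (GRCm38.p6), where 29 of the 36 genes have a window of 250 bases before to 50 bases after a start. Windows were searched on both strands for TCACNCCAC (a form of the sterol regulatory element), CACGTG (the E-box, which SREBP-1 and other factors can bind), CCAAT (the NF-Y box) and GGGCGG (the Sp1 box). NF-Y and Sp1 are known partners of SREBP at many of its promoters. The upstream stretches below belong to the members past the fold that have such a window, to set those higher beside those lower, and to Hmgcs1, added after the values were seen as the only member whose window held the sterol element form. Each is written 5′ to 3′ on the strand of its gene, stops before the first annotated base of the gene, and has every match of the 4 motifs on either strand in capitals. The stretches are chr13:119690101-119690350 (plus strand) for Hmgcs1, chr1:169969242-169969455 (minus strand) for Hsd17b7, chr11:100528001-100528250 (minus strand) for Acly, chr11:120824548-120824797 (minus strand) for Fasn and chr3:129532136-129532354 (plus strand) for Elovl6.
Hmgcs1: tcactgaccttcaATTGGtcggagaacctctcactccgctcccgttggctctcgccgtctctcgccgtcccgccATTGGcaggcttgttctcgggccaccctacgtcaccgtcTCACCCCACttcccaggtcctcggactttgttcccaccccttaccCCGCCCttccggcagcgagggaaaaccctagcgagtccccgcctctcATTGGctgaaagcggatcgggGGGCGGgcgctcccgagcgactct
Hsd17b7: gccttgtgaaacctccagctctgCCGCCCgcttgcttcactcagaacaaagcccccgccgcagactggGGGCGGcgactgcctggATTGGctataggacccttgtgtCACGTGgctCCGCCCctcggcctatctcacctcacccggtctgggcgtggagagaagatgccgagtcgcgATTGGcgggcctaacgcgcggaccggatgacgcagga
Acly: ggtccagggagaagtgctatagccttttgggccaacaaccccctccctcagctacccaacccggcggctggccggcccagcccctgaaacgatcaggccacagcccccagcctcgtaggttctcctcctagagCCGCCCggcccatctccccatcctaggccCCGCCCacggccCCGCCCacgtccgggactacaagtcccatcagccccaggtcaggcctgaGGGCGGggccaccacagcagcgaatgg
Fasn: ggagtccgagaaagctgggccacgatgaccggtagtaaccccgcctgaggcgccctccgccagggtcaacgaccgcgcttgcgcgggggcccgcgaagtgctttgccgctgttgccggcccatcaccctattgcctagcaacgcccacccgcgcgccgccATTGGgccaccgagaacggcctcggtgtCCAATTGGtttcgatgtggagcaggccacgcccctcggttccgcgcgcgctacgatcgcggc
Elovl6: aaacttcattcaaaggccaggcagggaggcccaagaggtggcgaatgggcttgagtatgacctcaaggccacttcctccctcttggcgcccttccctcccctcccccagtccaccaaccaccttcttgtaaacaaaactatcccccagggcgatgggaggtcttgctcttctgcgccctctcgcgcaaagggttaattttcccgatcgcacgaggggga

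In these stretches, Hmgcs1 held 1 sterol element form, 3 NF-Y boxes and 2 Sp1 boxes, and Hsd17b7 held 1 E-box, 2 NF-Y boxes and 3 Sp1 boxes. The stretch of Acly held 4 Sp1 boxes, that of Fasn 3 NF-Y boxes, of which a pair on opposite strands overlap, and that of Elovl6 none of the 4 motifs. With the rest of each window included, NF-Y boxes numbered 4 for Hmgcs1, 3 for Hsd17b7, 1 for Acly, 3 for Fasn and 0 for Elovl6. Over whole windows, the NF-Y box was found in 24 of 29 member genes (82.8%), compared with 41.1% of 27025 genes with a window, and the Sp1 box in 23 (79.3%), compared with 38.2%. Among the cholesterol enzymes with a window, 14 of 14 had an NF-Y box and 13 of 14 an Sp1 box. Among the fatty acid enzymes these numbers were 6 of 10 and 5 of 10. The E-box was found in 6 member genes (20.7%, compared with 8.09%) and the sterol element form in 1 (3.45%, compared with 1.44%). These are matches of letters in a fixed window, and the base composition of the windows was not matched.

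Of the 17 enzymes of the cholesterol pathway, 7 were higher and 10 lower in HSF V30M, with a median log2 ratio of -0.05. Past the fold was 1 of them (5.88%, against 16.7% of all genes), as higher (against 8.22%). Of the 6 mevalonate steps, 2 were higher and 4 lower, and the median was -0.09. Hmgcs1, which condenses acetyl units into HMG-CoA, was the most abundant of them, at 53.4 FPKM in HSF V30M and 41.5 FPKM in HSF WT (log2 ratio 0.36, counting interval 0.29 to 0.44). The kinases Mvk, at 13.4 and 13.6 FPKM (-0.02), and Pmvk, at 22.8 and 21.9 FPKM (0.05), were nearly level.

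Further down the mevalonate arm the ratios were negative. Mvd, the decarboxylase and the lowest member of all, was at 2.69 and 3.12 FPKM (-0.16), on about 99 and 88 fragments, in a locus the table shares among 210 genes. The counting interval of Mvd crossed 0, from -0.65 to 0.21. Idi1, the isomerase that follows, was at 4.67 FPKM in HSF V30M and 5.69 FPKM in HSF WT (-0.24). Fdps, which makes farnesyl diphosphate, was at 22.0 and 30.5 FPKM (-0.46). The value of Fdps is uncertain, because 86.4% of its transcript's 50-base windows also occur in other genes, 8 in number, the largest share with Gm43738, listed at 0 and 0.28 FPKM. Shared windows made up 21.3% for Idi1 and 10.9% for Fdft1.

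At the squalene steps, 2 of 3 enzymes were higher in HSF V30M. Fdft1, squalene synthase, was at 8.28 and 7.17 FPKM (0.18). Sqle, the epoxidase that limits flux after mevalonate, was at 7.94 and 8.91 FPKM (-0.15), with a counting interval that crossed 0. Lss, which closes the ring to lanosterol, was the highest of the group, at 14.9 FPKM in HSF V30M and 10.9 FPKM in HSF WT (0.41, interval 0.32 to 0.56).

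The late sterol steps turn lanosterol into cholesterol, and their 8 enzymes were split, with 3 higher, 5 lower and a median of -0.05. Besides Hsd17b7, Ebp, the sterol isomerase, was higher at 12.5 and 8.53 FPKM (0.51), below the 1.5-fold line with or without the pseudocount. Nsdhl, a dehydrogenase of the demethylation complex, was at 9.87 and 8.89 FPKM (0.14). Msmo1, the methylsterol oxidase of the same complex and the most abundant late enzyme, was at 31.0 FPKM in HSF V30M and 35.6 FPKM in HSF WT (-0.20). Under the authors' scaling, Hsd17b7, Nsdhl and Msmo1, which work on the same methyl groups, thus did not share a sign or size. The counting interval of Nsdhl crossed 0 (-0.06 to 0.36), and its ratio was -0.12 after scaling to the summed FPKM. Cyp51, the lanosterol demethylase, was at 8.99 and 9.37 FPKM (-0.05), and Tm7sf2, a sterol reductase, at 6.87 and 7.12 FPKM (-0.05). Sc5d, a sterol desaturase, was at 11.4 and 14.5 FPKM (-0.32). Dhcr7, the reductase of a last step, was at 5.83 and 7.65 FPKM (-0.34).

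The 5 genes of SREBP control were all within the 1.5-fold line, with 3 higher and 2 lower. Srebf1, the factor that mainly drives fatty acid synthesis, was the most abundant, at 140.2 FPKM in HSF V30M and 151 FPKM in HSF WT. Its log2 ratio was -0.11, with a counting interval from -0.14 to -0.07. Srebf2, which mainly drives cholesterol synthesis, was at 41.8 and 35.9 FPKM (0.21, interval 0.14 to 0.29). The table does not separate the transcripts of Srebf1 that start at different promoters. Scap, the escort of both factors, was at 34.1 FPKM in HSF V30M and 25.7 FPKM in HSF WT (0.40, interval 0.33 to 0.49). Insig1, itself a target of SREBP, was at 21.7 and 18.8 FPKM (0.20). Insig2, the other retention protein, had the opposite sign under the authors' scaling, with 18.2 and 23.8 FPKM (-0.37). After scaling to the summed FPKM, Insig1 was at -0.07 and Insig2 at -0.64. After centring on the adipocyte list they were at 0.60 and 0.03. The median of the group was 0.20 above zero on the log2 scale, but -0.07 after scaling to the summed FPKM, which stood 0.17 above the median of all genes under that scaling.

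The enzymes of fatty acid synthesis are given by step. Of its 13 enzymes, 8 were higher and 5 lower in HSF V30M, and 3 were past the fold (23.1%, against 16.7% of all genes), all of them lower (against 8.44%). With 13 genes this is a description of these enzymes only. The median log2 ratio was 0.08, opposite in sign to the genes past the fold under the authors' scaling, but -0.20 after scaling to the summed FPKM. The 5 genes from acetyl-CoA to palmitate summed to 390.3 FPKM in HSF V30M and 599.9 FPKM in HSF WT, and their median was -0.30. Beside Acly and Fasn, Acaca, the carboxylase that makes malonyl-CoA for synthesis, was lower, at 68.4 and 84.5 FPKM (-0.30, interval -0.34 to -0.27). Acaca shares 52.6% of its 50-base windows with Gm5182, which was itself at 1.85 and 3.32 FPKM. Acacb, the mitochondrial form of the carboxylase and the least abundant gene of this step, was at 11.9 and 10.5 FPKM (0.16). Acss2, which makes acetyl-CoA from acetate instead of citrate, was at 20.9 and 18.2 FPKM (0.20). Acly and Acss2, the alternative sources of cytosolic acetyl-CoA, thus had opposite signs, except under scaling to the summed FPKM, where Acss2 was at -0.07.

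The 4 desaturases were all higher in HSF V30M and none was past the fold, with log2 ratios from 0.08 to 0.27 and a median of 0.22. After scaling to the summed FPKM all 4 ratios were negative, from -0.20 to -0.01, but all 4 were above the median of all genes under each scaling. Scd1, which puts a double bond into stearate to give oleate, was the most abundant of the 36 genes, at 900.4 FPKM in HSF V30M and 762 FPKM in HSF WT (0.24, interval 0.23 to 0.25). Its paralog Scd2 was at 463 and 384 FPKM (0.27, interval 0.25 to 0.29). Scd1 and Scd2 lie near each other on chromosome 19, with Scd4 between them. Of their 50-base windows, 4.66% and 4.01% occur in other genes. Fads1 and Fads2, which desaturate polyunsaturated fatty acids, are on chromosome 19 too. Fads1 was at 90.8 and 85.8 FPKM (0.08), and Fads2, the least abundant desaturase, at 28.7 and 24.9 FPKM (0.20). Fasn and Scd1, both textbook targets of SREBP-1, thus differed in opposite directions under the authors' scaling.

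Of the 4 elongases, 2 were higher and 2 lower, with a median of -0.08. Elovl1, which extends saturated very long chains such as those of myelin sphingolipids, was the most abundant, at 169 and 162 FPKM (0.06, interval -0.01 to 0.13). Elovl5, which extends polyunsaturated chains, was at 31.7 and 36.8 FPKM (-0.21). Elovl7, the least abundant, was at 7.87 and 6.84 FPKM (0.18). Elovl6 was the only one past the fold, and 4.40% of its windows occur in other genes.

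**Figure D3:**
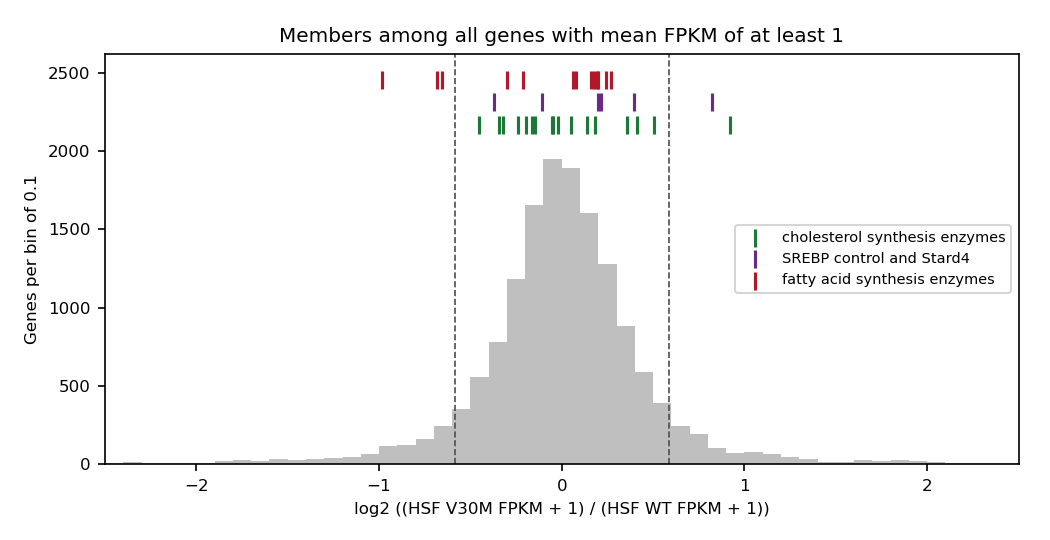
Histogram of log2 ratios (HSF V30M against HSF WT) for genes with a mean of at least 1 FPKM (grey, bins of 0.1; 451 genes lie beyond the axis), with the cholesterol enzymes (green), the SREBP genes with Stard4 (purple) and the fatty acid enzymes (red) as ticks above it; dashed lines mark 1.5-fold. Most ticks lie between the lines, where 31 of the 36 genes are, and those outside are Hsd17b7 at 0.92, Stard4 at 0.82, Elovl6 at -0.65, Fasn at -0.68 and Acly at -0.98.

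Around these chains, 65 further genes of sterol and lipid handling were read, of which 60 had a mean of at least 1 FPKM. They were evenly split, with 30 higher and 30 lower, and 6 of the 60 were past the fold, 1 higher (background 8.22%) and 5 lower (background 8.44%). Thrsp, a regulator of lipogenesis found mainly in fat and liver, was at 70.0 FPKM in HSF V30M and 133 FPKM in HSF WT (-0.92), a ratio close to that of Acly. Apoe, the lipoprotein that carries cholesterol between cells of the nerve, was at 1309 and 2600 FPKM (-0.99). Soat1, which esterifies cholesterol for storage, was at 16.2 and 29.1 FPKM (-0.81). These genes of synthesis control, transport and storage were all about as far apart as Acly or Fasn. Acsl3 and Acsl5, which activate fatty acids for storage or membrane lipids, were at 9.33 and 15.4 FPKM (-0.66) and at 6.10 and 11.9 FPKM (-0.87). Elovl4, an elongase of very long chains, was higher, at 7.98 and 4.92 FPKM (0.60). The 9 further genes of cholesterol synthesis had a median of 0.08, the 11 expressed genes of SREBP and LXR control 0.05, and none of these 20 was past the fold. Medians were 0.01 for uptake, storage and efflux of cholesterol, 0.04 for further genes of fatty acid synthesis, and -0.21 for glycerolipid assembly, where 8 of 10 genes were lower.

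Fat and myelin, the tissues of the nerve in which these enzymes are most used, were compared by lists of marker genes. In the adipocyte list, 10 of 11 expressed genes had the lower value in HSF V30M, against 49.6% of all genes, and 3 of them were past the fold as lower, against 8.44%. The median log2 ratio was -0.41. Adipoq, the gene of adiponectin, was at 319 and 543 FPKM, and Plin1, which coats the lipid droplet, at 173 and 210 FPKM. The summed level of the list was 2632 FPKM in HSF V30M and 3570 FPKM in HSF WT, and no marker was at 0. The 1 marker that was higher was Pck1, at 67.7 and 60.2 FPKM. Acly, Fasn, Elovl6 and Thrsp were lower like most adipocyte markers, but 8 of the 13 fatty acid enzymes were higher under the authors' scaling. Among those higher was Scd1, the most abundant member, at 900.4 and 762 FPKM. The part of fat in these levels was not tested. Relative to the median of the adipocyte list, the log2 ratios were -0.57 for Acly, -0.27 for Fasn and -0.25 for Elovl6. In whole nerve, fewer cells of a type and less RNA per cell cannot be told apart.

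In the myelinating Schwann cell list, 7 of 15 genes were higher and 8 lower, none was past the fold, and the median was -0.02. Pmp22, a protein of compact myelin, was at 2252 and 2440 FPKM (-0.12). The summed level was 14060 FPKM in HSF V30M and 12660 FPKM in HSF WT, with no marker at 0, so the nerve label held in both groups. Relative to the median of this list the 5 genes past the fold were the same, and the desaturases had a median of 0.24. Macrophage markers, which come from cells that also express Apoe, had a median of -0.45, with 5 of 7 lower and sums of 280.1 and 378 FPKM. Their part in the level of Apoe was not tested.

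**Figure D4:**
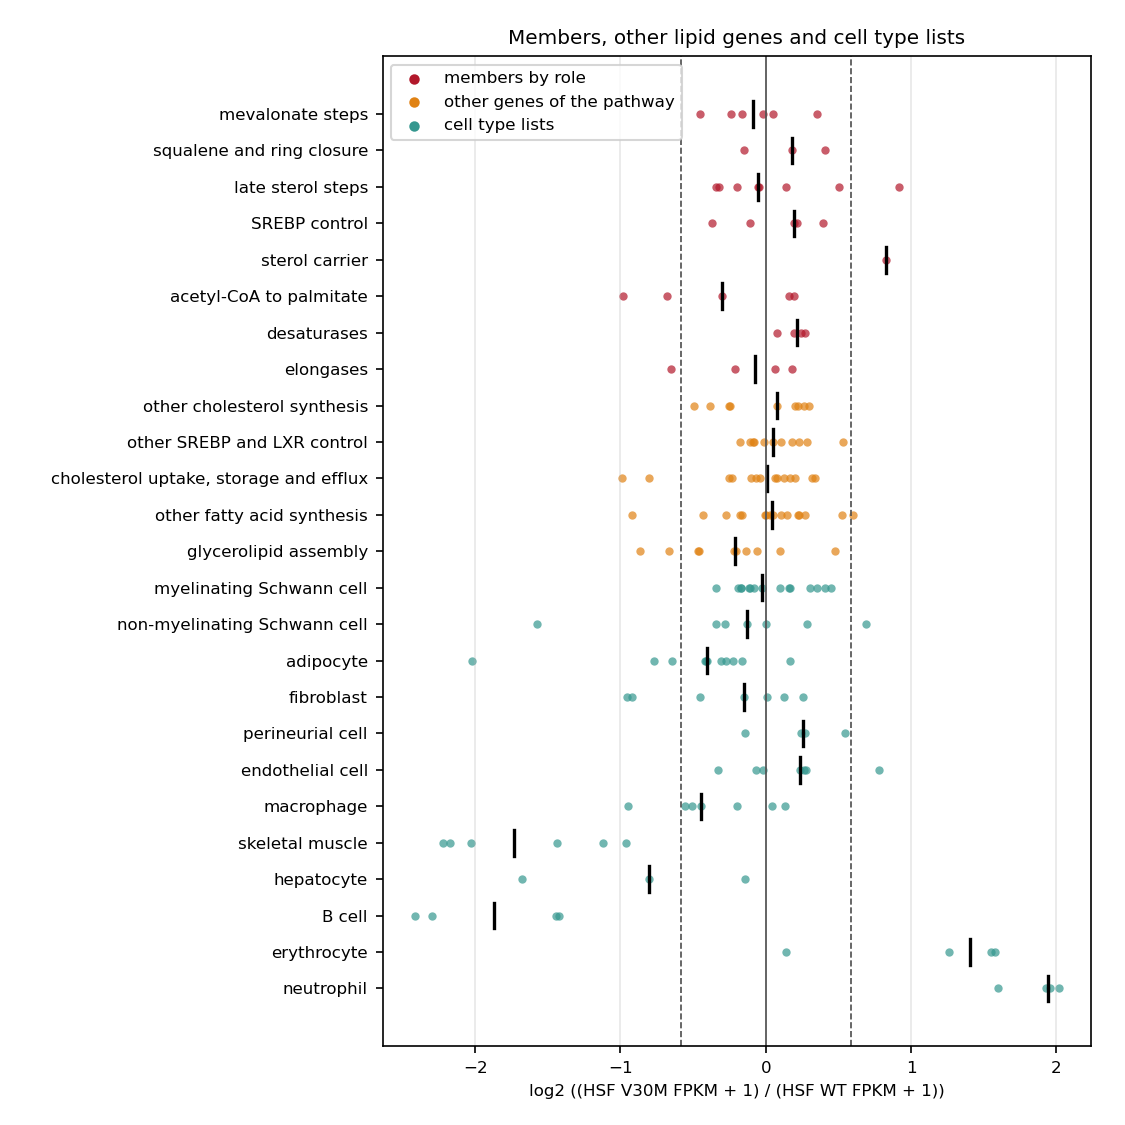
Log2 ratios (HSF V30M against HSF WT), with a pseudocount of 1, of single genes (points) and the median of each list (black bars) for the 36 genes by role (red), further lipid genes (orange) and cell type markers (green); dashed lines mark 1.5-fold. The median is -0.30 for the palmitate steps, where 2 of 5 genes are higher, and 0.22 for the desaturases. Medians of cell type lists include -0.45 for macrophages, -0.41 for adipocytes, -0.15 for fibroblasts and -0.02 for myelinating Schwann cells. Those of endothelial and perineurial cells lie at 0.24 and 0.26.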

How the data were processed

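RNA from sciatic nerve of 2 HSF V30M and 2 HSF WT mice, by the labels, was sequenced with Ion Torrent protocols; the methods give n = 4 without saying whether per group, and nothing links the values to single animals. The submitters' processing notes name STAR, Cufflinks and Cuffdiff with the genome GRCm38; versions, annotation, strand setting and options are not given in the sources used here. The authors deposited 1 Cuffdiff table with 1 FPKM value per gene and group, written with decimal commas, which were read as points. Its columns of fold change, p-value, q-value and significance hold the authors' own comparison and were not used.

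Ratios were computed as log2 of FPKM plus a pseudocount of 1 over genes with a mean of at least 1 FPKM, after leaving out 23 genes without an estimate. The fold of 1.5 is that of the study. With 1 value per group no limma test could be run, and no depth per sample is known beyond what 1 fragment is worth: with transcripts shortened by 200 bases, low values multiplied by kilobases clustered at 0.04809 and 0.06475 for HSF WT (97.7% of 981 values) and at 0.03894 and 0.04576 for HSF V30M (73.2% of 481 values, where FPKM has 2 decimals). Fragment numbers and 95% intervals of the ratio follow from these and cover counting error only. Transcripts and positions are from GENCODE M21, which holds 50369 of the gene identifiers and lacks 224. A planned comparison of protein sequences was not made. Members and lists were chosen with earlier results of these data known. Every member is named; named genes outside them are lipid genes past the fold and the first 2 markers of a list, of which some are not reported here. Alternatives were a pseudocount of 0.1 or none, a minimum mean of 5 FPKM or none, median-of-ratios scaling, scaling to the summed FPKM without the 20 highest genes, centring on the myelinating Schwann cell or adipocyte list, leaving out members whose locus in the table is shared, and a fold of 2. The computations were tested on simulated data. Scripts ran in Python 3.11.15 with pandas 2.3.3, numpy 2.4.6, matplotlib 3.10.9 and scipy 1.17.1.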

Additional observations from a re-analysis of the deposited data

How the results depend on the processing

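No paired analysis was possible because single mice have no values of their own, and so no mouse could be left out. Scaling to the summed FPKM without the 20 highest genes moved the median of all genes from 0.00 to -0.24 and the share of lower genes among those past the fold from 50.7% to 77.1%; medians became -0.22 for all 36 genes, -0.29 for cholesterol enzymes, -0.20 for fatty acid enzymes and -0.072 for SREBP control. Under that scaling 21.9% of all genes were past the fold, of which 77.1% were lower. Of the 36 genes, 6 were then past the fold as lower (Insig2, Dhcr7 and Fdps besides the earlier 3) and 2 as higher. Of the 60 further lipid genes, 0 were higher and 10 lower. Centring on the adipocyte list put the median of all genes at 0.41. Of all genes, 33.9% were then past the fold, and 11.8% of these were lower. The same medians became 0.46, 0.36, 0.49 and 0.60. Of the 36 genes, 13 were past the fold as higher and 0 as lower, under a centring that moved all genes upward. A minimum mean of 5 FPKM left 1 of the 36 genes higher, a fold of 2 left 0 higher and 0 lower, and leaving out the 18 members in a shared locus left 1 lower, Fasn; Acly shares its locus with Mir7116, listed at 0 in both groups, and Elovl6 with genes of at most 0.40 FPKM. Under the other alternatives, the 5 genes past the fold were the same. Single ratios moved by more than their counting error in 28 genes under the summed FPKM and in 33 under adipocyte centring, and in 3 under myelin centring. Counting error is wide for Stard4, Mvd and Tm7sf2; the variation between mice is unknown for all genes.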

Other observations

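Other cell type lists, read in the same table, differed more than the lipid genes. The counts below stand against 8.22% of all genes past the fold as higher and 8.44% as lower. In either size of difference, 50.4% of all genes were higher and 49.6% lower. Skeletal muscle markers were lower in HSF V30M in 6 of 6 expressed genes, all past the fold, with a median log2 ratio of -1.74. Acta1, the actin of muscle fibres, was at 7.41 and 21.8 FPKM, in a locus shared among 210 genes. Ckm, muscle creatine kinase, was at 8.97 and 43.8 FPKM. B cell markers were lower in 4 of 4 expressed genes (median -1.87), with Cd79a and Cd79b, parts of the B cell receptor, at 0.65 and 7.09 FPKM and at 0.53 and 7.16 FPKM. Hepatocyte markers were lower in 3 of 3 expressed genes (median -0.80), 2 of them past the fold, with Alb at 1.76 and 3.82 FPKM. Cyp2e1, by far the most abundant of the list, was within the fold at 131 and 144 FPKM (-0.14). Ahsg, with a mean below the minimum of 1 FPKM, went the other way at 1.11 and 0.72 FPKM. Neutrophil markers were higher in 4 of 4 genes, all past the fold (median 1.94), with S100a8 at 12.6 and 3.48 FPKM and S100a9 at 59.0 and 13.8 FPKM. Erythrocyte markers were higher in 4 of 4 (median 1.40), with the globin Hbb-bs at 111 and 37.1 FPKM and Hba-a1 at 94.0 and 30.8 FPKM. The 3 past the fold were all globins, and near-identical globin copies can share reads. Alas2, the other marker, was nearly level at 5.71 and 5.08 FPKM (0.14), with a counting interval that crossed 0, from -0.13 to 0.47.

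Lists of nerve-resident cells had medians closer to 0, but held single genes past the fold: Gfap at -1.57 and Cdh2 at 0.69 among 7 non-myelinating Schwann cell markers, Pi16 at -0.95 and Dpt at -0.92 among 7 fibroblast markers, and Cldn5 at 0.78 among 7 endothelial markers, all chosen after their values were seen. Medians were -0.13 for non-myelinating Schwann cells, with Ngfr at 32.7 and 40.0 FPKM and L1cam at 28.1 and 22.9 FPKM, and -0.15 for fibroblasts, with Pdgfra at 45.3 and 62.3 FPKM and Dcn at 1331 and 1320 FPKM. Perineurial markers had a median of 0.26, with Slc2a1 at 120.0 and 101 FPKM and Itgb4 at 310 and 257 FPKM, and endothelial markers 0.24, with Pecam1 at 44.9 and 56.5 FPKM and Cdh5 at 40.8 and 33.8 FPKM. In the macrophage list, Csf1r was at 31.2 and 36.0 FPKM and Cd68 at 15.5 and 30.9 FPKM. Of 5 keratinocyte markers 0 reached a mean of 1 FPKM. The first value is that of HSF V30M throughout.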
